A study of Mus musculus with 24 samples.

Results

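The olfactory epithelium of 10-week-old iRhom2-/- mice was compared with that of WT mice of the same age, 3 mice on each side, or 6 of the 24 samples of the series, and 6 mice of 8 weeks, 3 of each genotype, served a test of age. Members were chosen by the sample labels for age and genotype, and by the names of the columns of counts that match those labels. No treatment of the mice is named. The iRhom2-/- line is of a mixed strain background (129Sv and C57BL/6 in the study's methods), and that of the WT mice is not stated. At 10 weeks, in both genotypes, mice 1 and 2 were male and mouse 3 was female. The WT mice of 8 weeks had the same sexes, while all 3 iRhom2-/- mice of 8 weeks were male. The iRhom2-/- mice carry a tm1b knockout allele of *Rhbdf2*, in which a LacZ reporter is read from the gene's own promoter in every cell that uses it, so the loss is not limited to 1 cell type. The whole main olfactory epithelium was dissected, polyadenylated RNA was selected, and directional libraries were sequenced. Each library therefore holds the RNA of neurons, stem cells, support cells, glands, glia, blood and underlying tissue together.

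The olfactory epithelium renews its sensory neurons throughout life. Globose basal cells divide and give rise to immature neurons marked by *Gap43*, which mature into *Omp*-positive neurons that carry odorant receptors on their cilia, while horizontal basal cells form a reserve of quiet stem cells. Sustentacular cells and Bowman glands support the neurons with detoxifying enzymes and mucus. iRhom2, a rhomboid-like protein without protease activity, brings the sheddase ADAM17 to the cell surface, where ADAM17 releases EGF receptor ligands and TNF.

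*Rhbdf2*, the gene of iRhom2, was at 19.1, 19 and 19.4 CPM (counts per 1000000, scaled by TMM) in WT mice 1, 2 and 3, and at 8.67, 9.49 and 6.51 CPM in iRhom2-/- mice 1, 2 and 3. The genotypes did not overlap, and reads on the gene were present in every iRhom2-/- mouse. By edgeR over all genes tested, with 3 mice a side, its log2 fold change came to -1.22 (standard error 0.158, adjusted p = 0.0404). With 1 fewer WT mouse it no longer passed an adjusted p of 0.1 (0.153 without WT mouse 1, 0.18 without mouse 2 and 0.227 without mouse 3), while the direction did not change. *Xist*, the RNA that silences an X chromosome in females, was at 184 CPM in WT mouse 3 and 259 CPM in iRhom2-/- mouse 3, and at no more than 0.787 CPM in the other 4 libraries, as the labels for sex have it. *Omp*, which encodes the olfactory marker protein, was at 4980.1 CPM or more in every library, and the vomeronasal receptor genes *Vmn1r43*, *Vmn2r26* and *Vmn2r1* were at or under 3 counts in every library.

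Libraries held 33812446 to 35736621 counts, and 3 counts, the limit that a count of 0 allows, were 0.0808 to 0.103 CPM. The library of iRhom2-/- mouse 2 stood apart. *Bpifb9b*, which encodes a secreted protein of the BPI fold family, took 13.6% of its counts (95% Wilson interval 13.55 to 13.58%), and *Bpifb9a* took 5.06% (5.055 to 5.07%). In the other libraries *Bpifb9b* took 0.308, 0.49 and 0.0301% (WT mice 1, 2 and 3) and 0.593 and 0.0524% (iRhom2-/- mice 1 and 3). The means of the genotypes differed by 4.46 percentage points, and by 0.0467 without iRhom2-/- mouse 2, and the two-sided exact permutation test gave p = 0.4, where 3 mice against 3 can give no p below 0.1. The expression of *Bpifb9b* thus differed between single mice of both genotypes, with WT mouse 3 and iRhom2-/- mouse 3 at the lowest shares. Other libraries stood apart in other genes. Of the genes tested with a mean of at least 1 CPM, 31 were more than 4 times as high in iRhom2-/- mouse 2 as in any other library, among them *Sval2*, *Odam* and *Hba-a1*. That number was 9 for iRhom2-/- mouse 3, 2 for iRhom2-/- mouse 1, 7 for WT mouse 2 and 0 for WT mice 1 and 3. By the same factor, 36 genes were lower in iRhom2-/- mouse 3 than in any other library, 31 in WT mouse 1, 12 in iRhom2-/- mouse 2, 8 in iRhom2-/- mouse 1, 5 in WT mouse 3 and 3 in WT mouse 2.

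**Figure D1:**
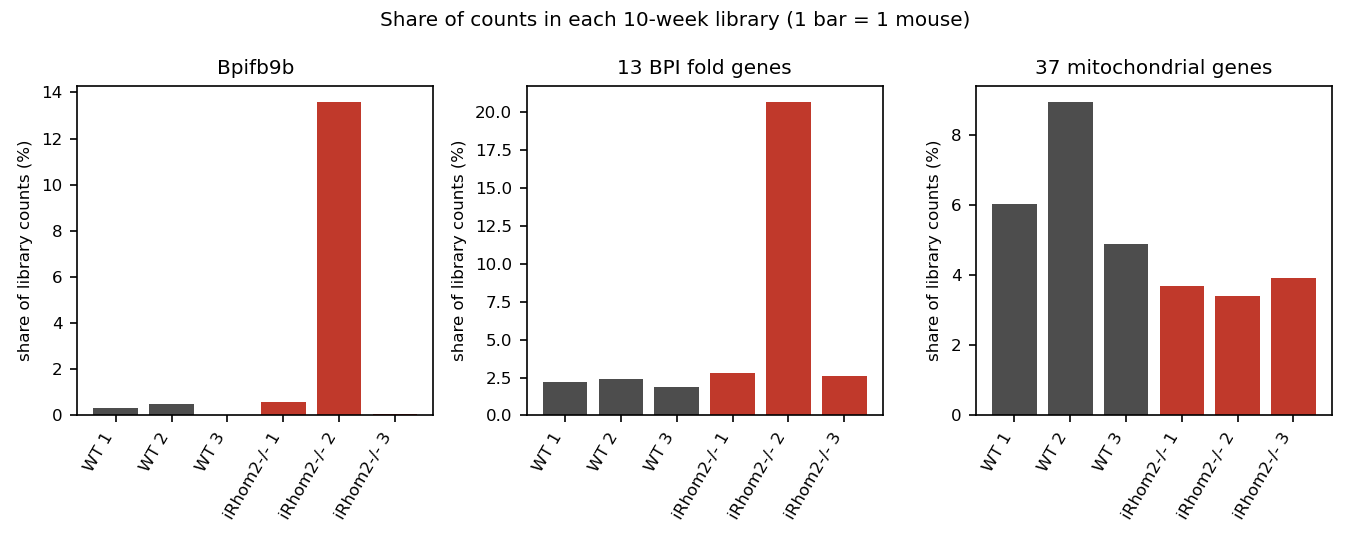
Share of all counts of each 10-week library (percent, vertical axis) taken by *Bpifb9b*, by the 13 BPI fold genes and by the 37 genes of the mitochondrial genome; each bar is 1 mouse, grey for WT and red for iRhom2-/-. In iRhom2-/- mouse 2 *Bpifb9b* reaches 13.6%, and the mitochondrial share is 3.41 to 3.93% in iRhom2-/- mice against 4.9 to 8.95% in WT mice.

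After a filter on low counts 18764 of the 45706 genes of the table were tested with the quasi-likelihood method of edgeR. At the threshold of 0.1 for adjusted p, 16 genes rose (0.0853%) and 21 fell (0.112%) in iRhom2-/- mice. These 37 genes are 0.197% of those tested, and all 37 had genotypes that did not overlap, against 13.4% of all genes tested (6.81% higher and 6.6% lower). An unadjusted p under 0.05 was reached by 1461 genes, 744 higher and 717 lower. DESeq2 called 140 genes higher and 149 lower, and these include all 37. The median log2 fold change over all genes tested was 0.0068. The 37 genes kept their direction in each of the 6 fits that left out 1 mouse, but 10 passed in all of those fits and 3 in none (*H1f2*, *Rpl30* and *Cyp1a1*). The total was 20 without WT mouse 1, 13 without WT mouse 2, 14 without WT mouse 3, 44 without iRhom2-/- mouse 1, 21 without iRhom2-/- mouse 2 and 105 without iRhom2-/- mouse 3, of which 19, 13, 12, 31, 19 and 31 were among the 37. Fewer mice in a side cost power, and iRhom2-/- mouse 3 was the mouse whose absence added the most genes. By position, 6 of the 37 lie on chromosome 9 (0.551% of the genes tested there) and 4 on chromosome 15 (0.593%).

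Some of the 37 genes have near-identical copies elsewhere in the genome. Pseudogenes made up 11 of them (29.7%), against 948 (5.05%) of all genes tested. A copy on the same strand that matches at least 50% of a transcript at 90% identity or more exists for 19 of the 37, 11 higher and 8 lower. How many of all genes tested have such a copy was not counted. When the counts of each such gene were summed with those of its copies, a step chosen after the data were seen, 2 of the 19 still passed. These are *Nat8f7* and *Nat8f3*, which count each other as copies. Where copies hold most of the counts, the sum can hardly move with the gene, and it cannot show whether the gene itself differed. *Gm6594*, at no more than 1.24 CPM in any mouse, was part of a sum of 249.3 to 319.8 CPM. Reads that fit several copies are divided among them by the estimation of the counts, and sequence differences between mice of different background can move reads from one copy to another. That part in the differences was not tested.

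In some pairs the gene and its copy ran in opposite directions. *Rpl29*, which encodes a protein of the large ribosomal subunit, was at 53.3, 42.5 and 48.8 CPM in WT mice and at 213, 293 and 179.7 CPM in iRhom2-/- mice 1, 2 and 3 (log2 fold change 2.25, standard error 0.195, adjusted p = 0.0117 by edgeR). Its pseudogene *Gm8210* ran the other way, at 131, 94.3 and 122 CPM in WT mice and at 0, 0 and 50 CPM in iRhom2-/- mice. Summed with 52 copies, *Rpl29* had a log2 fold change of 0.5 (adjusted p = 0.538 by edgeR). *Hdac1-ps*, a processed copy of the histone deacetylase gene *Hdac1*, was at 3.88, 4.66 and 4.03 CPM in WT mice and at 17.3, 19.9 and 27.3 CPM in iRhom2-/- mice, while *Hdac1* was at 78.5, 76.7 and 83.9 against 53.4, 61.7 and 33 CPM. In the sum the log2 fold change was -0.24 (adjusted p = 0.727 by edgeR). For *Pcna-ps2*, a copy of the gene of the replication clamp PCNA, the log2 fold change was 2.68 alone (adjusted p = 0.0117) and 0.01 summed with *Pcna* (adjusted p = 0.99, both by edgeR). Genes such as *Hdac1*, *Gm8210* and *Pcna* were named here as copies, after their values were seen.

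Further genes of this kind were close to absent in 1 genotype. *Gm21887* on chromosome X had 2 counts in the 3 WT mice together and 2498 in iRhom2-/- mice, a ratio of 1290 (95% counting interval 358 to 10700), and summed with its copy *Gm47283* its log2 fold change was 1.83 (adjusted p = 0.506 by edgeR). *Gm6594* had 1 count in WT mice (ratio 106, interval 18.6 to 4220) and *Gm7125* had 2 (ratio 86.6, interval 23.6 to 721). Both match *Hmgn2*, as does *Gm10182*, which was at 4.11, 1.6 and 4.49 CPM in WT mice and at 54.4, 63.9 and 117 CPM in iRhom2-/- mice. In the other direction *Gm9008*, a copy of *Rnf26*, had 1 count in iRhom2-/- mice (ratio 157, interval 27.8 to 6250). *Gm13301* had 132 counts in WT mice and 0 in iRhom2-/- mice, which makes it at least 42.4-fold lower against a floor of 3 counts over the group, and summed with its copies its log2 fold change was -3.48 (adjusted p = 0.153 by edgeR). *Gm12191*, a copy of *Rpl30*, was at 0, 1.81 and 0.865 CPM in WT mice and at 43.1, 98.4 and 98 CPM in iRhom2-/- mice. *Rpl30* fell by 0.95 on the log2 scale, and with their copies both had a log2 fold change of -0.13 (adjusted p = 0.909 by edgeR). *Pcdhgb8*, a gene of the gamma protocadherin cluster, was at 0.467 to 0.703 CPM in WT mice and at 4.18 to 5.49 CPM in iRhom2-/- mice, and summed with 2 genes of the cluster that match it, it had a log2 fold change of 0.5 (adjusted p = 0.605 by edgeR). Several of these calls ended without 1 mouse. Without WT mouse 2 the adjusted p was 0.157 for *Gm21887*, *Gm6594* and *Gm7125*, 0.106 for *Gm9008* and 0.18 for *Gm13301*. Without WT mouse 3 it was 0.126 for *Gm6594*, 0.16 for *Gm7125* and *Gm13301* and 0.254 for *Gm12191*, without WT mouse 1 it was 0.12 for *Gm6594* and *Gm13301*, and without iRhom2-/- mouse 2 it was 0.123 for *Gm6594* and *Gm7125* and 0.128 for *Gm12191*. *Rpl30* passed in 0 of these fits, with an adjusted p from 0.103 without iRhom2-/- mouse 3 to 0.505 without WT mouse 3.

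**Figure D2:**
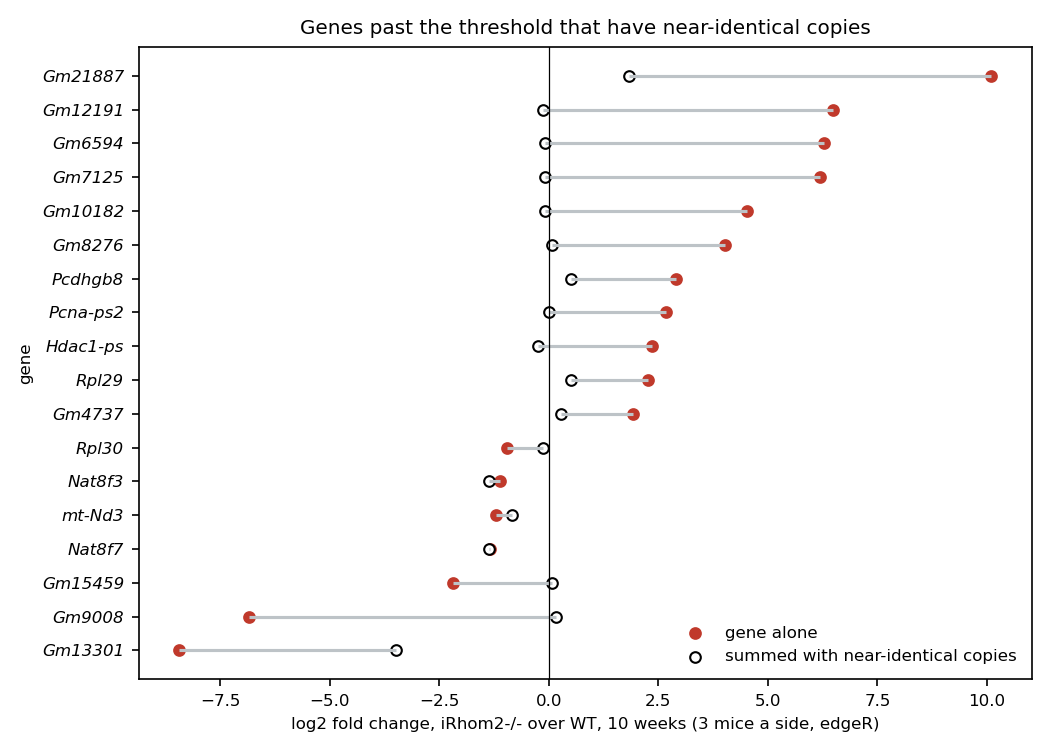
Log2 fold change of 18 of the 19 genes past the threshold that have near-identical copies (horizontal axis; vertical axis, genes), for the gene alone (red) and for its counts summed with those of its copies (open circles). In the sum most lie near 0, and *Nat8f7* and *Nat8f3* stay at -1.36. A gene that holds a small part of its sum can hardly move it. Fitted values of genes with 0 to 3 counts in a genotype depend on the fit and do not measure the size of the difference.

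Of the 18 genes without such a copy, 13 fell and 5 rose. The smallest p of all belonged to *Gm26825*, a long noncoding RNA on chromosome 5 (5781530 to 5783636 in GRCm38), which was at 525, 545 and 476 CPM in WT mice and at 15.3, 16.8 and 13 CPM in iRhom2-/- mice. All 3 iRhom2-/- mice were far below all WT mice (log2 fold change -5.1, standard error 0.159, adjusted p = 1.73e-05 by edgeR), and it passed without any single mouse. It lies on the strand opposite *Gm15459*, a pseudogene of the chaperone gene *Hspa8* that fell with it (229, 339 and 233 CPM against 60.1, 43.5 and 71.1 CPM) and that reached a log2 fold change of 0.06 once summed with its copies. *Gm26825* spans all of *Gm15459* (5781615 to 5783555). Copies were sought on the same strand only, so matches of *Gm26825* to the opposite strand of other genes were not counted. *Olfr44*, an odorant receptor gene on chromosome 9, was at 2.16, 2.21 and 2.14 CPM in WT mice and at 0.0808, 0.103 and 0.14 CPM in iRhom2-/- mice (log2 fold change -4.28, adjusted p = 0.0117 by edgeR). Among 838 odorant receptor genes tested it was the single one past the threshold, which 0.197% of all genes tested passed. The noncoding RNA *2900052N01Rik* was at 9.59, 10.4 and 13.8 CPM against 1.88, 3.03 and 2.22 CPM, and the pseudogene *Gm9522* at 4.05, 3.88 and 3.43 against 0.969, 0.894 and 0.757 CPM. The latter did not pass without WT mouse 1 (adjusted p = 0.12 by edgeR), WT mouse 2 (0.154), WT mouse 3 (0.122) or iRhom2-/- mouse 2 (0.104).

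Several known protein-coding genes fell. *Nr4a1*, an immediate early gene of an orphan nuclear receptor, was at 93.7, 99.4 and 105 CPM in WT mice and at 39, 33.8 and 49.5 CPM in iRhom2-/- mice (log2 fold change -1.29, standard error 0.148, adjusted p = 0.0263 by edgeR). It did not pass without WT mouse 1 (0.104), WT mouse 2 (0.144) or WT mouse 3 (0.16). *Arhgef19*, a guanine nucleotide exchange factor gene, was at 39.7, 39 and 39.9 CPM against 18.3, 21.3 and 17.3 CPM (log2 fold change -1.06, adjusted p = 0.0172, and 0.114 without WT mouse 3, by edgeR). The levels within each genotype were close together, so that the distance between genotypes was many times the spread among mice. *Nat8f7* and *Nat8f3*, members of the N-acetyltransferase 8 family, were at 17.4, 21.1 and 21.6 CPM against 6.78, 9.01 and 8.02 CPM and at 24.1, 26.7 and 24.5 CPM against 10.1, 11.3 and 13.4 CPM. Summed with each other and a further copy they had a log2 fold change of -1.36 (adjusted p = 0.011 by edgeR). Alone, *Nat8f7* did not pass without WT mouse 2 (0.154) or WT mouse 3 (0.147), nor *Nat8f3* without WT mouse 1 (0.11), WT mouse 2 (0.157), WT mouse 3 (0.16) or iRhom2-/- mouse 2 (0.165).

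The other lower genes without a copy were chosen for naming after their values were seen. *Sfn*, the 14-3-3 protein sigma of stratified epithelia, had a log2 fold change of -1.05, the synaptotagmin gene *Syt4* of -1.17, *Nrde2* of -0.75, *Eps8l1* of -0.77, the synaptic priming gene *Unc13c* of -0.92 and *Cyp1a1*, a target of the aryl hydrocarbon receptor, of -0.65 (adjusted p from 0.0295 to 0.098 by edgeR). Each of these 6 lost its call in some fits without 1 mouse. *Sfn* did so without WT mouse 3 (0.126) and iRhom2-/- mouse 2 (0.13), and *Syt4* without WT mouse 1 (0.18), WT mouse 2 (0.18) and WT mouse 3 (0.227). *Nrde2* and *Eps8l1* did so without every mouse but iRhom2-/- mouse 1 (adjusted p from 0.103 to 0.299 and from 0.119 to 0.315), *Unc13c* without every mouse but iRhom2-/- mouse 3 (0.206 to 0.334), and *Cyp1a1* in every fit (0.104 to 0.504).

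*Nnt*, which encodes the NADPH-generating transhydrogenase of the inner mitochondrial membrane, rose with little spread. It was at 7.93, 7.43 and 6.6 CPM in WT mice and at 18.1, 18.3 and 18.9 CPM in iRhom2-/- mice (log2 fold change 1.33, standard error 0.125, adjusted p = 0.014 by edgeR), and it passed without any single mouse. As background, the C57BL/6J strain carries a deletion in *Nnt*, and the iRhom2-/- line is of mixed background. The genotype at *Nnt* was not determined here, and its part was not tested. *Dmp1*, a matrix protein gene of bone and tooth, was at 13.2, 13.1 and 18.1 CPM against 27.5, 39.7 and 38.5 CPM (log2 fold change 1.25, standard error 0.187, adjusted p = 0.0879 by edgeR). It did not pass without WT mouse 1 (0.315), WT mouse 2 (0.324), WT mouse 3 (0.122) or iRhom2-/- mouse 2 (0.307). The other higher genes without a copy were named after their values were seen. The stress-induced pseudokinase gene *Trib3* had a log2 fold change of 1.17, the linker histone gene *H1f2* of 0.68 and the vasopressin gene *Avp* of 1.46 (adjusted p from 0.0636 to 0.0942 by edgeR). *Avp* was low, at 3.29 to 3.97 CPM in WT mice and 8.08 to 13.3 CPM in iRhom2-/- mice. Without 1 mouse, *Trib3* lost its call except without WT mouse 1 or iRhom2-/- mouse 3 (adjusted p from 0.16 to 0.369 in the other fits), *Avp* except without iRhom2-/- mouse 1 or 3 (0.268 to 0.369), and *H1f2* in every fit (0.104 to 0.603).

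**Figure D3:**
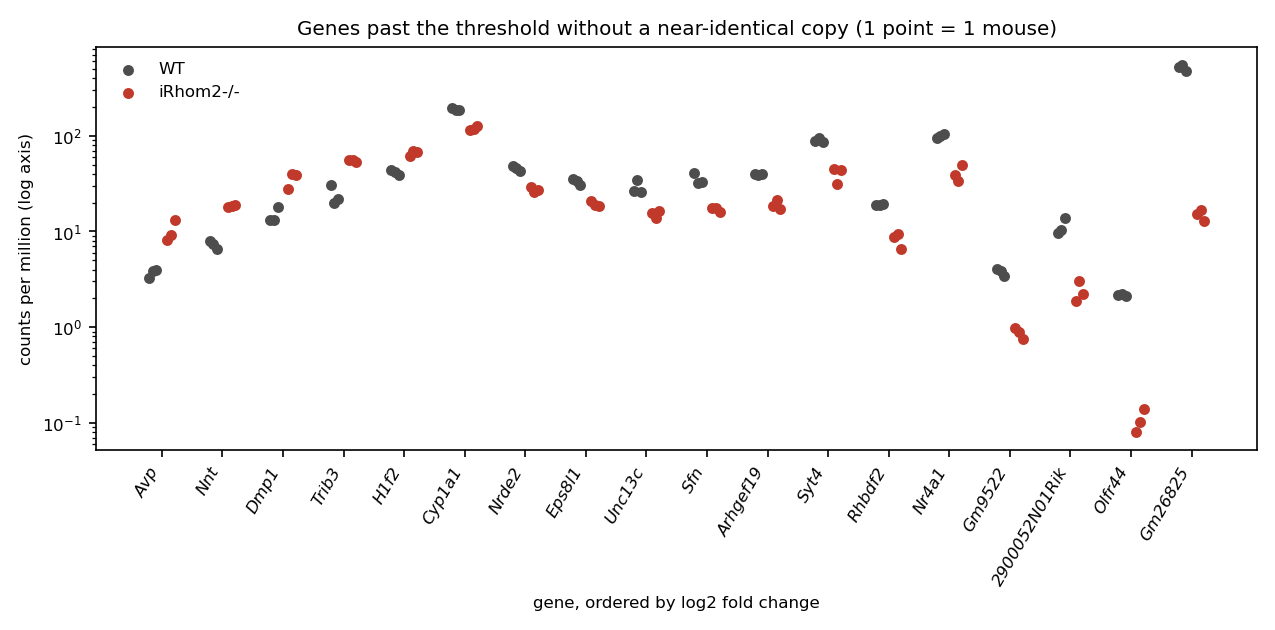
Level in CPM (log axis) of the 18 genes past the threshold that have no near-identical copy on the same strand, in order of their log2 fold change. Each point is 1 mouse, grey for WT and red for iRhom2-/-. For every gene shown the 3 iRhom2-/- mice lie on 1 side of the 3 WT mice, and *Gm26825* is at 476 to 545 CPM against 13 to 16.8 CPM.

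Neurons and their precursors were described by lists of marker genes. Of 16 genes of mature olfactory neurons 14 had a log2 fold change below 0, with a median of -0.14 (-0.22 without iRhom2-/- mouse 1) and a range of -0.3 to 0.07. None passed in edgeR or DESeq2, 1 had an unadjusted p under 0.05, and 4 did not overlap (25%, against 13.4% of all genes tested). Their summed level was 18461, 15341 and 17346 CPM in WT mice and 15538, 13713 and 16669.5 CPM in iRhom2-/- mice, so the genotypes overlapped. Without *Omp* the sum was 10893, 10337 and 10737 CPM against 10196, 8733 and 9503 CPM, lower without overlap for the remaining genes. *Omp*, the most abundant of them, was at 7568, 5004 and 6609 CPM in WT mice and at 5342, 4980.1 and 7167 CPM in iRhom2-/- mice. WT mouse 2 was as low as the lower iRhom2-/- mice, and iRhom2-/- mouse 3 was above WT mouse 3 (log2 fold change -0.13, standard error 0.209, adjusted p = 0.932 by edgeR). *Cnga4*, a subunit of the channel that opens on odour stimulation, had the smallest p, with 370.2, 354 and 348 CPM against 322, 266 and 284 CPM (log2 fold change -0.3, standard error 0.121, adjusted p = 0.612 by edgeR). In bulk RNA, fewer cells of a type and less RNA per cell cannot be told apart, here or for any list below.

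The 11 genes of immature neurons all had a log2 fold change above 0, with a median of 0.17 (0.09 without iRhom2-/- mouse 3) and a range of 0.04 to 0.43. In edgeR 0 passed (2 at an unadjusted p under 0.05), DESeq2 called 1, *Gap43*, and 4 did not overlap (36.4%, against 13.4% of all genes tested). *Gap43*, a growth cone protein gene, was at 118, 99.6 and 115 CPM in WT mice and at 137, 143 and 155 CPM in iRhom2-/- mice. The lowest iRhom2-/- mouse was above the highest WT mouse (log2 fold change 0.39, standard error 0.112, adjusted p = 0.437 by edgeR). *Tubb3*, a neuronal tubulin gene and the most abundant of the list, was at 373, 321 and 395 CPM against 357, 349.8 and 439.7 CPM, so the genotypes overlapped. The summed level was 1799, 1574 and 1764 CPM in WT mice and 1877, 1777 and 2069.7 CPM in iRhom2-/- mice, where iRhom2-/- mouse 2 lay within the range of WT mice. Without *Tubb3* the sum was 1426, 1253 and 1369 CPM against 1520.3, 1427 and 1630 CPM. These did not overlap, with iRhom2-/- mouse 2 just above WT mouse 1. Other members of lists named from here on, beyond the most abundant and the one with the smallest p, were chosen after their values were seen.

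For the 13 genes of globose basal cells and neuronal precursors the median was 0.24, with 11 above 0. By edgeR 0 passed (3 at an unadjusted p under 0.05) and by DESeq2 0, and 5 did not overlap, all higher (38.5%, against 6.81% of all genes tested). Summed, they were at 296, 274 and 255 CPM in WT mice and 334, 315 and 310.2 CPM in iRhom2-/- mice, without overlap. As a share of all counts the genotypes overlapped, at 0.0298, 0.0273 and 0.0264% against 0.0367, 0.0267 and 0.032% (exact permutation test of both sides, p = 0.3). *Top2a*, the topoisomerase of dividing cells, was at 24.7, 23.1 and 22.1 CPM against 31.7, 29.9 and 28.8 CPM (log2 fold change 0.37, standard error 0.1, adjusted p = 0.436 by edgeR). The proliferation genes *Mki67* (log2 fold change 0.51) and *Cdk1* (0.42) also did not overlap, while *Ccnb1* (0.33, and 0.21 without iRhom2-/- mouse 2) did, at 6.85, 5.89 and 5.89 CPM against 8.51, 9.11 and 5.86 CPM. The proneural genes *Neurog1* (0.25) and *Neurod1* (0.24), which mark steps on the way to a neuron, differed by less than 2 standard errors. *Hes6*, the most abundant of the list, was at 77.2, 52.4 and 60.8 CPM against 63.4, 77.5 and 78.3 CPM. The 2 members below 0 were *Lgr5* and *Kit* (log2 fold change -0.05). *Lgr5* was at 10, 12.9 and 9.6 CPM against 10.6, 6.12 and 8.25 CPM, with overlap (log2 fold change -0.37).

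Horizontal basal cells are marked by the keratins *Krt5* and *Krt14* and by *Trp63*, the transcription factor that keeps them quiet. *Krt5* was at 63.7, 64.6 and 66.5 CPM in WT mice and at 84.5, 89.9 and 78.8 CPM in iRhom2-/- mice, and *Krt14* at 23.6, 21.9 and 26 CPM against 28.4, 43.1 and 40 CPM. Neither overlapped (log2 fold change 0.38, adjusted p = 0.404, and 0.64, adjusted p = 0.418, both by edgeR), and DESeq2 called both. *Trp63* was at 15.7, 22.7 and 19.1 CPM against 20.3, 17.7 and 22.2 CPM (log2 fold change 0.07), and the keratin gene *Krt15* at 1.14, 8.48 and 2.46 CPM against 1.08, 2.23 and 3.06 CPM (log2 fold change -0.92, and 0.24 without WT mouse 2), so both overlapped. Of the 7 genes of the list edgeR called 0 (2 at an unadjusted p under 0.05), and 2 did not overlap (28.6%, against 13.4% of all genes tested). The median was 0.16 (0.09 without iRhom2-/- mouse 1 and 0.24 without WT mouse 2). The summed level was 139.8, 161 and 152 CPM in WT mice and 180.5, 197 and 184 CPM in iRhom2-/- mice, without overlap. Without *Krt5* the sum was 76.2, 96.6 and 85.6 CPM against 96, 107 and 105 CPM, and the genotypes overlapped.

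Odorant receptor genes were tested one by one as part of all genes. Of 838 tested, 624 had a log2 fold change below 0 and 214 above, with a median of -0.35 (-0.53 without iRhom2-/- mouse 1, and -0.25 without WT mouse 2 or iRhom2-/- mouse 3). At the same time the summed level of all 1175 receptor genes was 1564, 1858 and 1713 CPM in WT mice and 1785, 1621 and 1414 CPM in iRhom2-/- mice, so the genotypes overlapped. The direction of single receptors thus did not show in the total. In edgeR 1 fell (*Olfr44*), against 21 of the 18764 genes tested (0.112%). An unadjusted p under 0.05 was reached by 159, 48 higher and 111 lower, against 1461 of all genes tested, 744 higher and 717 lower. DESeq2 called 17 higher and 9 lower, against 140 and 149 among all genes. Genotypes did not overlap for 224 receptors (26.7%), 173 lower and 51 higher, against 13.4% of all genes tested. *Olfr536*, the most abundant receptor, went against the median, with 54, 47.3 and 42.4 CPM in WT mice and 101, 90 and 73.8 CPM in iRhom2-/- mice (log2 fold change 0.88, adjusted p = 0.132, and 0.99 with adjusted p = 0.0407 without iRhom2-/- mouse 3, by edgeR). Without that mouse edgeR also called *Olfr138* lower (log2 fold change -2.03) and *Olfr741* (1.04) and *Olfr1507* (1.1) higher.

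Among the 8 immediate early genes, which are read within minutes of stimulation, *Nr4a1* alone passed the threshold and fell. *Fosb* was at 3.82, 5.39 and 3.41 CPM in WT mice and at 1.02, 1.31 and 1.51 CPM in iRhom2-/- mice (log2 fold change -1.71, standard error 0.279, adjusted p = 0.129, and 0.0881 without iRhom2-/- mouse 3, by edgeR). *Fos* was at 9.39, 13.6 and 13.8 CPM against 6.27, 7.87 and 6.76 CPM (log2 fold change -0.81, adjusted p = 0.349). Both had genotypes that did not overlap, as did *Nr4a1* (37.5% of the list, against 13.4% of all genes tested). DESeq2 called both, together with *Nr4a1*. *Egr1*, *Junb*, *Ier2*, *Dusp1* and *Arc* had log2 fold changes from -0.06 to 0.51, and the median of the list was -0.05 (-0.21 without iRhom2-/- mouse 2). Summed, the list was at 257, 279.7 and 296 CPM in WT mice and at 204, 209 and 212 CPM in iRhom2-/- mice, without overlap. Without *Nr4a1* the sum was 163, 180.2 and 190.3 CPM in WT mice and 165, 176 and 163 CPM in iRhom2-/- mice, and the genotypes overlapped.

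The study names 5 genes that follow neuronal activity. Of the 5, 4 were below 0, and 2 did not overlap (40%, against 13.4% of all genes tested), *Lrrc3b* and *Dlg2*. By edgeR 0 of the 5 passed (2 at an unadjusted p under 0.05), and DESeq2 called 1, *Lrrc3b*. *Lrrc3b* was at 194, 177 and 211 CPM in WT mice and at 70.1, 71.3 and 144 CPM in iRhom2-/- mice, with mouse 3 nearer to WT mice (log2 fold change -1.03, standard error 0.274, adjusted p = 0.434, and -1.47 with adjusted p = 0.00963 without iRhom2-/- mouse 3, by edgeR). *Dlg2*, a synaptic scaffold gene, was at 273, 277 and 332 CPM against 167, 76.4 and 234 CPM (log2 fold change -0.89, adjusted p = 0.588 by edgeR). *S100a5*, the most abundant, was at 2893, 1822 and 2759 CPM against 2446, 2061 and 3038 CPM, so that the genotypes overlapped. The median was -0.26 (-0.05 without iRhom2-/- mouse 2 and -0.42 without iRhom2-/- mouse 3), and the summed level, 5509 to 6996 CPM in WT mice and 4602 to 6789 CPM in iRhom2-/- mice, also overlapped.

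Sustentacular cells carry the bulk of the detoxifying enzymes of the epithelium. Their 13 genes summed to 32851, 30127 and 32942 CPM in WT mice and to 27599.8, 28422 and 26986 CPM in iRhom2-/- mice, without overlap, a ratio of 0.865. As a share of all counts they took 3.31, 3.01 and 3.41% against 3.03, 2.4 and 2.78%, with overlap (exact permutation test of both sides, p = 0.2). *Cyp2a5*, a cytochrome P450 gene and the most abundant, was at 17744, 13764 and 16705 CPM against 13704, 13372 and 13424 CPM, and WT mouse 2 was close to the iRhom2-/- mice (log2 fold change -0.25, standard error 0.15, adjusted p = 0.779 by edgeR). *Sult1c1*, a sulfotransferase gene, had the smallest p, at 948, 801 and 1176 CPM against 721, 738 and 681 CPM (log2 fold change -0.45, standard error 0.162, adjusted p = 0.571 by edgeR). Of the 13 genes 10 were below 0, with a median of -0.21. EdgeR and DESeq2 called 0, 1 had an unadjusted p under 0.05, and 3 did not overlap (23.1%, against 13.4% of all genes tested). *Reg3g*, an antimicrobial lectin gene, went the other way, with 109.9, 451 and 278 CPM in WT mice and 199.9, 797 and 571 CPM in iRhom2-/- mice.

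Bowman glands secrete mucus onto the epithelium. Of 7 genes tested 5 were below 0, with a median of -0.15 (-0.02 without WT mouse 1 and -0.23 without iRhom2-/- mouse 2), and edgeR called 0 (0 at an unadjusted p under 0.05, 0 by DESeq2). *Gpx6*, a glutathione peroxidase gene and the most abundant, was at 3077, 1911 and 2394 CPM in WT mice and at 2121, 2571 and 1880.2 CPM in iRhom2-/- mice. The mucin gene *Muc5b*, with the smallest p, was at 1059, 909 and 831 CPM against 773, 630.4 and 899 CPM (log2 fold change -0.28, adjusted p = 0.78 by edgeR). Both overlapped between genotypes, as did the summed level of 4157 to 5199 CPM in WT mice and 3682 to 4427 CPM in iRhom2-/- mice. As a share of all counts the list was lower without overlap, at 0.523, 0.415 and 0.438% against 0.405, 0.375 and 0.398% (exact permutation test of both sides, p = 0.1). The difference in means of -0.0663 percentage points was -0.034 without WT mouse 1, and -0.0363 with the BPI fold and lipocalin genes left out of the total.

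The BPI fold family encodes lipid-binding proteins secreted by nasal glands and surface cells. Its 13 genes summed to 21825, 24093 and 17949 CPM in WT mice and to 25618, 244369 and 25177 CPM in iRhom2-/- mice. The genotypes did not overlap with or without iRhom2-/- mouse 2, although iRhom2-/- mouse 3 was close to WT mouse 2. As a share of all counts the list took 2.2, 2.4 and 1.86% in WT mice and 2.81, 20.7 and 2.6% in iRhom2-/- mice (exact permutation test of both sides, p = 0.1, which no 3 mice against 3 can go below). The means differed by 6.54 percentage points, and by 0.552 without iRhom2-/- mouse 2. Some members varied widely between mice and others did not. *Bpifb9b* was at 3059, 4908 and 291 CPM in WT mice and at 5398, 160332 and 508 CPM in iRhom2-/- mice, *Bpifb9a* at 1388, 1825 and 123 CPM against 2520, 59833 and 195 CPM, and *Bpifb5* at 39.7, 60 and 3.43 CPM against 60.3, 1676 and 5.55 CPM. All of these were highest in iRhom2-/- mouse 2 and lowest in WT mouse 3 or iRhom2-/- mouse 3, the females. By contrast *Bpifb4* was at 4282 to 7031 CPM in WT mice and 4715 to 6307 CPM in iRhom2-/- mice (log2 fold change -0.00, adjusted p = 0.999 by edgeR). *Bpifb3* was at 6050.1, 4420.2 and 5045 CPM against 6174, 7549 and 9112 CPM, without overlap (log2 fold change 0.56, standard error 0.194, adjusted p = 0.554 by edgeR). Of 10 genes tested, edgeR and DESeq2 called 0 (3 at an unadjusted p under 0.05), and the median of 0.55 was 0.19 without iRhom2-/- mouse 2. *Bpifa3*, of the same family, was at or under 3 counts in every library.

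Odorant-binding proteins and nasal lipocalins, which come from lateral nasal glands and the septum, differed by mouse. Of 11 genes in the table the sum was 196, 14774 and 586 CPM in WT mice and 1809, 9329.6 and 3485 CPM in iRhom2-/- mice. WT mouse 2 and iRhom2-/- mouse 2 were high, and WT mice 1 and 3 were low. *Obp2a*, the most abundant, was at 72.6, 5193 and 105 CPM against 453, 3819 and 1341 CPM (log2 fold change 0.06, standard error 1.45). The median of 8 genes tested was -0.21, and -0.94 without iRhom2-/- mouse 2. Its sign turned without WT mouse 2 (3.56), without iRhom2-/- mouse 1 (0.15) and without iRhom2-/- mouse 3 (0.01). *Lcn2*, which encodes an iron-scavenging lipocalin of neutrophils and inflamed epithelia, did not follow this pattern. It was at 21.1, 22.8 and 15.5 CPM in WT mice and at 38.1, 43.5 and 34.5 CPM in iRhom2-/- mice, without overlap (log2 fold change 0.97, standard error 0.164, adjusted p = 0.142 by edgeR, and 0.093 without iRhom2-/- mouse 3). EdgeR called 0 of the 8 (1 at an unadjusted p under 0.05), and DESeq2 called 1, *Lcn2*. *Lcn5* and *Lcn9* were at 0 counts in every library.

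Serous and mucous gland secretions had a median of 0.05 over 11 genes tested (0.78 without WT mouse 2, 0.25 without WT mouse 1, -0.29 without iRhom2-/- mouse 2 and -0.28 without iRhom2-/- mouse 3). EdgeR called 0 (0 at an unadjusted p under 0.05, 0 by DESeq2). *Dcpp1*, a secreted salivary protein gene, had a log2 fold change of 0.88 (adjusted p = 0.897), and of -1.87 (adjusted p = 0.0184 by edgeR) without iRhom2-/- mouse 3, where it was at 50.5 CPM against 2.53 to 11.2 CPM in the others. In that mouse *Dcpp2* was also highest, at 4.91 CPM against 1.57 to 2.74 CPM. *Dcpp3* ran the other way, at 0.982 CPM there against 6.93 to 13.9 CPM. *Scgb1c1*, a secretoglobin gene, made up 90.3% of their summed level of 5576 to 8346 CPM in WT mice and 4772 to 8759 CPM in iRhom2-/- mice. It was at 7922, 4188 and 6309 CPM against 4309, 6508 and 8274 CPM, and the genotypes overlapped. *Agr2*, a gene of the secretory pathway, was at 359.8, 306 and 344 CPM against 248, 292 and 303 CPM (log2 fold change -0.26, adjusted p = 0.719 by edgeR), without overlap. *Smgc* and *Prol1*, which mark salivary and lacrimal glands, were at 0 counts in every library.

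Respiratory epithelium borders the olfactory epithelium and can come with the dissection. Its secretory list had a median of 0.09 over 5 genes tested (0.3 without iRhom2-/- mouse 1 and -0.22 without iRhom2-/- mouse 2). By edgeR 0 passed (1 higher and 1 lower at an unadjusted p under 0.05), while DESeq2 called 1, *Scgb3a1* (log2 fold change 1.42, adjusted p = 0.53, and 1.82 with adjusted p = 0.0561 without iRhom2-/- mouse 1, by edgeR). The summed level of 3471, 3450.2 and 3337 CPM in WT mice and 2851, 2929.8 and 3022 CPM in iRhom2-/- mice did not overlap and was 98.5% *Cyp2f2*, a P450 gene also read in olfactory support cells. *Muc5ac*, the mucin of goblet cells, was at 0.35, 13.3 and 1.03 CPM against 0.323, 0.344 and 0.337 CPM, so its difference rests on WT mouse 2. *Scgb1a1*, *Scgb3a2* and *Clca1*, which define club and goblet cells, were at or under 3 counts in every library. The 12 genes of ciliated cells all had a log2 fold change above 0, with a median of 0.31 (0.6 without WT mouse 2, 0.5 without iRhom2-/- mouse 1 and 0.12 without iRhom2-/- mouse 2). EdgeR called 0 (1 at an unadjusted p under 0.05, 0 by DESeq2) and 0 were free of overlap (against 13.4% of all genes tested). *Foxj1*, the master gene of motile cilia, was at 97, 133 and 117 CPM against 130, 180.3 and 141 CPM, and *Ccdc40*, the most abundant, at 127 to 140 CPM against 127 to 159 CPM. The sum was 480.1, 625 and 531 CPM against 543, 780.3 and 667 CPM. Genes of microvillar cells and ionocytes had a median of 0.01 (-0.07 without WT mouse 1 and 0.11 without WT mouse 2; 10 tested, 0 called by edgeR, 0 at an unadjusted p under 0.05 and 0 by DESeq2). *Coch* made up 78.7% of their sum of 390.3 to 488 CPM in WT mice and 424 to 493 CPM in iRhom2-/- mice, and the ionocyte factor *Foxi1* was at 22 to 28.1 CPM against 26.2 to 35.3 CPM.

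Ensheathing glia wrap the axon bundles of the olfactory neurons beneath the epithelium. All 8 of their genes tested had a log2 fold change below 0, with a median of -0.53 (-0.42 without iRhom2-/- mouse 2 and -0.73 without iRhom2-/- mouse 3). *Fabp7*, a brain fatty acid binding protein gene, was at 176, 121 and 157 CPM in WT mice and at 76.6, 73.5 and 104 CPM in iRhom2-/- mice, without overlap (log2 fold change -0.83, standard error 0.183, adjusted p = 0.306 by edgeR, and 0.099 without iRhom2-/- mouse 3). It is both the most abundant gene of the list and the one with the smallest p. *S100b* was at 64.9, 59.4 and 68 CPM against 37.4, 48.4 and 49.5 CPM. *Sox10*, the defining transcription factor of these glia, was at 61.9 to 74.9 CPM against 57.4 to 63.1 CPM, a smaller difference with overlap (log2 fold change -0.18). EdgeR called 0 of the 8 (5 at an unadjusted p under 0.05), DESeq2 called 2, *Fabp7* and *S100b*, and 4 did not overlap (50%, against 13.4% of all genes tested). Summed, the list was at 475, 365 and 445 CPM in WT mice and 268, 265 and 345 CPM in iRhom2-/- mice, without overlap, a ratio of 0.683. How much lamina propria each dissection held was not measured, and its part was not tested.

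**Figure D4:**
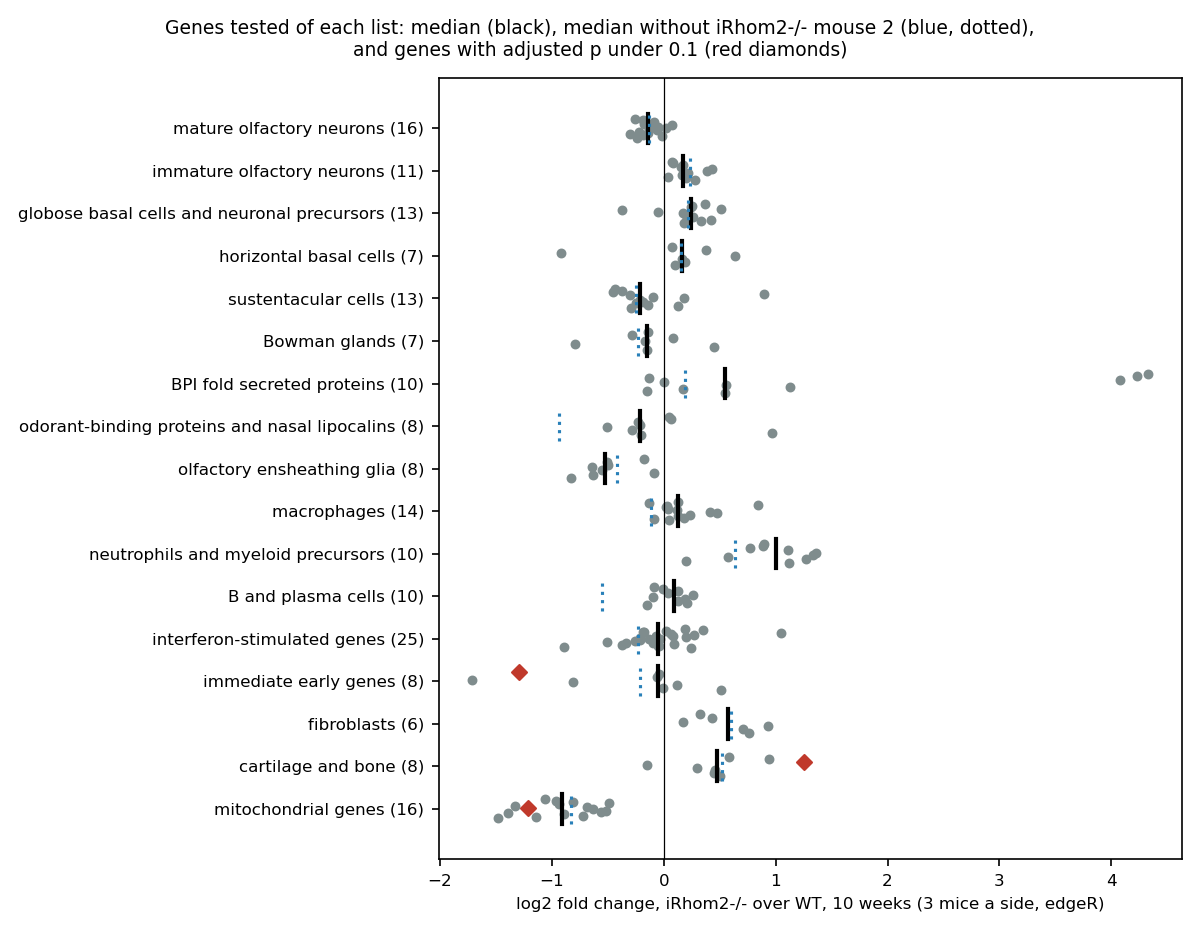
Log2 fold change between genotypes (horizontal axis) of the genes tested in each of 17 lists (vertical axis, number tested in brackets); points are genes, black bars are list medians, dotted blue bars are medians without iRhom2-/- mouse 2, and red diamonds are genes with an adjusted p under 0.1 by edgeR. Neutrophil genes have a median of 1 and ensheathing glia genes of -0.53, and for B and plasma cells and for lipocalins the blue bar lies far from the black.

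Genes of neutrophils and myeloid precursors were the immune list with the largest median. All 10 had a log2 fold change above 0, with a median of 1 (0.64 leaving out iRhom2-/- mouse 2 and 1.24 leaving out iRhom2-/- mouse 3). Summed, they were at 143, 138 and 97.2 CPM in WT mice and at 284, 341 and 131 CPM in iRhom2-/- mice, so that mice 1 and 2 were high and mouse 3 was within the range of WT mice. *S100a9*, a subunit of the antimicrobial protein calprotectin and the most abundant, was at 61.3, 54.5 and 45.3 CPM against 114, 133 and 53.6 CPM (log2 fold change 0.9, standard error 0.3, adjusted p = 0.546 by edgeR). *Prtn3*, a protease gene of granulocyte precursors, had the smallest p and no overlap, at 4.61, 4.49 and 4.3 CPM against 6.76, 15.2 and 6.99 CPM (log2 fold change 1.11, adjusted p = 0.442 by edgeR). EdgeR called 0 of the 10 (8 at an unadjusted p under 0.05), DESeq2 called 2, and 3 did not overlap (30%, against 13.4% of all genes tested). Without iRhom2-/- mouse 3 edgeR called *S100a9* (log2 fold change 1.19, adjusted p = 0.0258), *S100a8* (1.2, adjusted p = 0.0415) and *Ngp* (1.73, adjusted p = 0.0987). *Mpo* and *Elane*, which are read in bone marrow precursors, were at 3.05 to 5.25 and 1.27 to 2.92 CPM in WT mice and at 5.55 to 21 and 3.03 to 8.46 CPM in iRhom2-/- mice.

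Medians of the other immune lists moved with single mice. Of 14 macrophage genes 12 were above 0, with a median of 0.13 that became -0.11 without iRhom2-/- mouse 2 and 0.23 without iRhom2-/- mouse 1. Their sum was 312, 369.9 and 339 CPM in WT mice and 309.8, 731 and 335 CPM in iRhom2-/- mice, driven by the lysozyme gene *Lyz2* (92.3, 164 and 115 CPM against 114, 447 and 103 CPM). *Cd68*, a lysosomal protein gene, was at 9.51, 10.9 and 8.87 CPM against 11.1, 14.7 and 13.1 CPM, without overlap (log2 fold change 0.41, adjusted p = 0.58 by edgeR), and edgeR called 0 of the 14 (1 at an unadjusted p under 0.05, 0 by DESeq2). *Csf1r*, the growth factor receptor that defines macrophages, was at 42.1 to 46.8 CPM against 43.7 to 52.6 CPM. B and plasma cell genes had a median of 0.09 over 10 genes, -0.55 without iRhom2-/- mouse 2, -0.05 without WT mouse 3 and 0.42 without iRhom2-/- mouse 3. The antibody gene *Igha*, the most abundant, was at 229, 244 and 211 CPM against 194, 482 and 106 CPM, and *Igkc* at 236, 209 and 211 CPM against 182, 497 and 109.6 CPM. Summed, the list was at 532, 534 and 491 CPM against 433, 1109.7 and 248 CPM, so iRhom2-/- mice lay above and below all WT mice.

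T and NK cell genes were sparse, at 7.52 to 10.7 CPM summed in WT mice and 5.78 to 16.7 CPM in iRhom2-/- mice. Their median over 9 genes tested was -0.02 (-0.6 without iRhom2-/- mouse 2, 0.28 without iRhom2-/- mouse 3 and 0.19 without WT mouse 2 or iRhom2-/- mouse 1), *Cd4* was at 1.68 to 2.56 CPM against 1.7 to 2.58 CPM, and *Nkg7* had the smallest p (log2 fold change 0.72, adjusted p = 0.841 by edgeR). The MHC class II list had a median of -0.02 over 7 genes (0.17 without iRhom2-/- mouse 1 and -0.31 without iRhom2-/- mouse 2), and the invariant chain gene *Cd74* was at 204, 207 and 211 CPM against 143, 258 and 214 CPM. *Ciita*, the activator of class II genes, was at 1.49, 3.67 and 2.05 CPM against 1.02, 2.2 and 0.814 CPM (log2 fold change -0.85, adjusted p = 0.761 by edgeR), and the list summed to 438 to 450.5 CPM against 298 to 568 CPM. For B, T and class II genes edgeR and DESeq2 called 0, with 0 at an unadjusted p under 0.05 in each list. Of 25 interferon-stimulated genes 15 were below 0, with a median of -0.05 (0.14 without WT mouse 1 and -0.23 without iRhom2-/- mouse 2). EdgeR called 0 (2 at an unadjusted p under 0.05, 0 by DESeq2). *Ifit1*, an antiviral effector gene, was at 44.1, 31.3 and 33.3 CPM against 21, 23.9 and 31.4 CPM (log2 fold change -0.51, adjusted p = 0.571 by edgeR), and *Ifi27*, the most abundant, at 53.2 to 82.1 CPM against 49.1 to 77.7 CPM. The summed level of 290 to 380.2 CPM in WT mice and 273 to 351 CPM in iRhom2-/- mice overlapped.

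Partners and substrates of iRhom2 were tested as lists of their own. In the list of 6 genes of the iRhom and ADAM17 complex *Rhbdf2* fell and edgeR called 0 others. *Rhbdf1*, the gene of the related iRhom1, was at 19.4, 19.7 and 20.3 CPM in WT mice and at 18.9, 18.9 and 17.4 CPM in iRhom2-/- mice (log2 fold change -0.11, adjusted p = 0.87 by edgeR). *Adam17* was at 22.7, 28.5 and 23.2 CPM against 25, 23.7 and 23.5 CPM. *Frmd8*, whose product stabilises iRhoms, was at 21.4 to 22.8 CPM against 23.3 to 24.5 CPM, and *Timp3*, which encodes an inhibitor of ADAM17 and is the most abundant of the list, at 125 to 139.9 CPM against 145 to 159.8 CPM. Without *Rhbdf2* the members had log2 fold changes from -0.12 to 0.17. Genotypes did not overlap for 4 of the 6 (66.7%, against 13.4% of all genes tested). *Rhbdf2* and *Rhbdf1* were the lower ones, *Timp3* and *Frmd8* the higher ones. The sum was 267 to 300.1 CPM in WT mice and 274 to 298 CPM in iRhom2-/- mice, and the median was -0.08 (0.02 without WT mouse 2).

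EGF receptor ligands and receptors had a median of -0.13 over 8 genes tested (-0.07 without WT mouse 2), 7 of them below 0 (edgeR 0, 0 at an unadjusted p under 0.05, DESeq2 0). The receptor gene *Erbb3*, the most abundant, was at 78.6, 94.3 and 83 CPM in WT mice and at 80.3, 73.4 and 68.7 CPM in iRhom2-/- mice (log2 fold change -0.2, adjusted p = 0.754 by edgeR). Among ligands shed by ADAM17, *Tgfa* was at 29.1, 37.4 and 29.8 CPM against 33.4, 28.5 and 25.6 CPM, and *Areg* at no more than 1.4 CPM in any library. *Ereg* and *Epgn* were at or under 3 counts in every library, and the list summed to 192 to 235 CPM against 184 to 203 CPM. For TNF and its receptors 4 of 6 genes could be tested, with a median of 0.05 (0.16 without WT mouse 2 and -0.11 without iRhom2-/- mouse 2) and 0 called (edgeR 0, 0 at an unadjusted p under 0.05, DESeq2 0). *Tnf* was too low for a test, at 0.175, 0.262 and 0.0811 CPM against 0.458, 0.653 and 0.168 CPM. The receptor gene *Tnfrsf1a* was at 56.1, 58 and 58.7 CPM against 59, 70.1 and 59.8 CPM. Summed, this list was at 63.5 to 69.2 CPM against 66.8 to 83.3 CPM, and as a share of all counts it did not overlap, at 0.00639 to 0.0069% against 0.00692 to 0.00734% (exact permutation test of both sides, p = 0.1).

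Fibroblast and bone genes come from tissue around the epithelium. All 6 fibroblast genes had a log2 fold change above 0, with a median of 0.57 (from 0.52 to 0.61 without any 1 mouse). *Col1a1*, the most abundant, was at 1503, 1223 and 1370.3 CPM in WT mice and at 2464, 1816 and 2657 CPM in iRhom2-/- mice (log2 fold change 0.76, standard error 0.178, adjusted p = 0.351 by edgeR). *Col1a2* was at 1197, 1014 and 1163 CPM against 1885, 1561 and 2088 CPM (log2 fold change 0.71, adjusted p = 0.305), and *Col3a1* at 171, 184 and 187 CPM against 484, 237 and 311 CPM. None of these collagen genes overlapped between genotypes, and the summed level of 3289, 2885 and 3192 CPM against 5329, 4225 and 5549 CPM gave a ratio of 1.61. By edgeR 0 of the 6 passed. An unadjusted p under 0.05 was reached by 4, against 1461 of the 18764 genes tested, and 4 did not overlap (66.7%, against 13.4%). DESeq2 called 4, against 140 higher and 149 lower among all genes. *Dcn* (log2 fold change 0.17) and *Pdgfra* (0.32), which mark fibroblasts without being bone collagens, had smaller log2 fold changes. *Lum*, of the same kind, was at 92.2, 88.6 and 100.4 CPM against 111, 135 and 134 CPM, without overlap (log2 fold change 0.43, adjusted p = 0.434 by edgeR).

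Of the 8 cartilage and bone genes *Dmp1* rose, 4 did not overlap (50%, against 13.4% of all genes tested), and the median was 0.48 (0.32 without iRhom2-/- mouse 3). *Ibsp*, a bone matrix gene, was at 46.6, 54 and 55.1 CPM in WT mice and at 75.2, 95.8 and 129 CPM in iRhom2-/- mice (log2 fold change 0.94, adjusted p = 0.246, and 0.0865 without iRhom2-/- mouse 1, by edgeR), and *Sp7*, the osteoblast transcription factor, at 13 to 17.5 CPM against 19.3 to 26.6 CPM. *Bglap*, the osteocalcin gene and the most abundant, was at 128, 71.5 and 102 CPM against 90, 142 and 179.7 CPM, with overlap. Among cartilage genes *Acan*, of a matrix proteoglycan, was at 1.63, 1.92 and 1.57 CPM against 2.66, 2.1 and 2.5 CPM, without overlap (log2 fold change 0.5), and the log2 fold change was 0.3 for *Col2a1* and -0.15 for *Col9a1*. DESeq2 called 2 of the list, and 3 had an unadjusted p under 0.05 in edgeR. The summed level was 313, 228 and 291 CPM against 307, 414 and 517 CPM, so iRhom2-/- mouse 1 lay within the range of WT mice. As a share of all counts the list was higher without overlap, at 0.0315, 0.0228 and 0.0301% against 0.0337, 0.035 and 0.0533% (exact permutation test of both sides, p = 0.1). The difference in means of 0.0126 percentage points was 0.00624 without iRhom2-/- mouse 3. How much bone each dissection held was not tested.

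Endothelial genes had a median of 0.19 (0.12 without iRhom2-/- mouse 2), with all 5 above 0 (edgeR 0, 2 at an unadjusted p under 0.05, DESeq2 0). *Pecam1* was at 12.2 to 13.1 CPM in WT mice and 13.2 to 16 CPM in iRhom2-/- mice, and the receptor gene *Tek* at 1.84 to 3.23 CPM against 3.31 to 5.64 CPM, and the sum was 40.6 to 41.3 CPM against 43 to 51.1 CPM. Erythrocyte genes rested on iRhom2-/- mouse 2, with a median of 1.18 over 7 genes tested and of -0.86 without it. The sum was 1123, 1433 and 578 CPM in WT mice and 669, 5739 and 469.6 CPM in iRhom2-/- mice. *Hbb-bs*, a haemoglobin gene, was at 2349 CPM in that mouse and at 167 to 641 CPM in the others, and *Slc4a1*, the anion exchanger of the red cell membrane, at 25.7 CPM against 1.54 to 4.87 CPM (edgeR 0, 0 at an unadjusted p under 0.05, DESeq2 0). Skeletal muscle genes rested on iRhom2-/- mouse 1, with a sum of 16.4 CPM there and 1.68 to 3.51 CPM in the others. *Acta1* was at 5.2 CPM in that mouse against 0.447 to 1.69 CPM, *Mylpf* at 2.56 against 0.928 to 1.29 CPM, and the median of 0.53 over 2 genes tested was -0.62 without it (edgeR 0, 0 at an unadjusted p under 0.05, DESeq2 0). Mast cell genes other than *Kit*, which globose basal cells and melanocytes also read, were at 0.481 CPM or less. *Kit* was at 14.8 to 18.4 CPM against 14.1 to 17.7 CPM, and the sum of the list was 15.5 to 19.4 CPM against 15.5 to 18.1 CPM. Vomeronasal genes summed to at most 2.68 CPM, with *Trpc2* at 1.08 to 1.28 CPM in WT mice and 0 to 1.89 CPM in iRhom2-/- mice. The mast cell and vomeronasal lists had 1 and 2 genes tested, 0 called by edgeR and DESeq2 and 0 at an unadjusted p under 0.05.

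Genes of the mitochondrial genome, which encode subunits of the respiratory chain, were lower in all 3 iRhom2-/- mice. Together they took 6.04, 8.95 and 4.9% of counts in WT mice and 3.7, 3.41 and 3.93% in iRhom2-/- mice. The genotypes did not overlap (exact permutation test of both sides, p = 0.1), and their difference in means of -2.95 percentage points ranged from -3.81 without WT mouse 3 to -1.79 without WT mouse 2. All 16 genes tested had a log2 fold change below 0, with a median of -0.91 (-0.95 scaled by library totals alone), 13 did not overlap (81.2%, against 13.4% of all genes tested) and 15 had an unadjusted p under 0.05 (1461 of the 18764 genes tested did). *mt-Nd3*, a subunit gene of complex I, fell from 1125, 1174 and 1147 CPM to 413, 634 and 446 CPM (log2 fold change -1.21, standard error 0.18, adjusted p = 0.0879 by edgeR). It passed in 1 of the 6 fits without 1 mouse, the one without iRhom2-/- mouse 2 (adjusted p = 0.0458). It did not without WT mouse 1 (0.257), WT mouse 2 (0.261), WT mouse 3 (0.332), iRhom2-/- mouse 1 (0.146) or iRhom2-/- mouse 3 (0.104), and not when summed with the nuclear copy *Gm28438* (log2 fold change -0.85, adjusted p = 0.244). *mt-Co1*, a subunit gene of complex IV and the most abundant, was at 14857, 22079 and 11365 CPM against 9312, 9866 and 10207 CPM (log2 fold change -0.72, adjusted p = 0.541), and *mt-Co3* at 7648, 11564 and 5835 CPM against 2495, 4231 and 2844 CPM (log2 fold change -1.39, adjusted p = 0.284). DESeq2 called 7 of the 16. *Gm10925*, a pseudogene on chromosome 1 among the 3 largest shares of WT mouse 3, was at 7302, 10085 and 8255 CPM against 4819, 6383 and 5193 CPM. *CT010467.1*, annotated as ribosomal RNA and among the 3 largest shares of iRhom2-/- mouse 1, was at 5376 to 6481 CPM against 5973 to 9541 CPM. The mitochondrial share can move with tissue handling and RNA quality, for which the labels give no measure, and that part was not tested.

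iRhom2-/- mouse 3, the female of its group, was the mouse whose absence changed the calls most. Without it 105 genes passed, 43 higher and 62 lower, and 74 of these do not pass with all 6 mice. The 74 were picked by leaving this mouse out. Its distance from iRhom2-/- mice 1 and 2 in them therefore follows largely from the choice. In 23 of the 74 iRhom2-/- mouse 3 lay within the range of the WT mice. Pseudogenes are 15 of the 74, against 948 (5.05%) of all genes tested with all 6 mice. The splicing factor gene *Rnps1* was at 66.9, 56.8 and 65.9 CPM in WT mice and at 118, 105 and 26 CPM in iRhom2-/- mice 1, 2 and 3, while its copy *Rnps1-ps* was at 48.4, 38.7 and 43.6 CPM against 5.03, 3.82 and 99 CPM. The chromatin protein gene *Hmga1* and its copy *Hmga1b* also ran in opposite directions, at 84.6, 95.1 and 18.9 CPM and at 3.77, 6.6 and 49.2 CPM in iRhom2-/- mice 1, 2 and 3. The sum over each pair was not tested. The noncoding RNA *E330020D12Rik* was at 3.29, 2.53 and 2.95 CPM in WT mice and at 0, 0.0688 and 3.11 CPM in iRhom2-/- mice. The adenosine receptor gene *Adora1* was at 18.8 and 17.4 CPM in iRhom2-/- mice 1 and 2, and at 1.23 CPM in iRhom2-/- mouse 3 and 1.6 to 3.96 CPM in WT mice. All of these were chosen after their values were seen. Strain background was not genotyped here, and neither its part nor that of sex in these genes was tested.

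Mice of 8 weeks, 3 of each genotype, were used to test where the difference at 10 weeks was not the same at another age. Over 12 libraries 20030 genes were tested for an interaction of genotype and age, and 16 passed an adjusted p of 0.1 by edgeR (0.0799%), 8 with a more positive and 8 with a more negative difference at 10 weeks. The ages were sequenced in separate submissions, so age and submission cannot be told apart. At 8 weeks WT mouse 3 was female and all iRhom2-/- mice were male, while at 10 weeks the genotypes had the same sexes. The part of sex in the interaction was not tested. Of the 16, 7 were also among the 37 at 10 weeks. The same 10-week libraries entered both fits, so part of this overlap is built in. Of the 37 the log2 fold change at 8 weeks had the same sign for 29. The share of same signs over all genes tested was not counted. For *Nnt* the level in WT mice of 8 weeks was 14.8 to 17.4 CPM and in iRhom2-/- mice 17 to 18 CPM, so the WT mice of 10 weeks, at 7.0 to 8.42 CPM in the same fit, were the group that differed from the other 3 (log2 interaction 1.18 with a standard error of 0.147, adjusted p = 0.0364). *Gcnt7*, a glycosyltransferase gene, was at 56.7 to 68.9 CPM in WT mice and 49 to 62.2 CPM in iRhom2-/- mice at 10 weeks (log2 fold change -0.1), and at 8 weeks it was at 28.7 to 30.8 CPM against 66.5 to 75.9 CPM (interaction -1.38, standard error 0.148, adjusted p = 0.0157). It passed in 12 of 12 fits without 1 mouse. *Efna5*, an ephrin gene of axon guidance, had log2 fold changes of -0.39 at 10 weeks and 0.41 at 8 weeks (interaction -0.8, adjusted p = 0.082), and *Adam23*, a gene of an ADAM protein without protease activity, of -0.44 and 0.43 (interaction -0.87, adjusted p = 0.082). *Nr4a1* was at 99.5 to 112 CPM in WT mice of 10 weeks and at 31.2 to 53.4 CPM in the other 3 groups (interaction -1.49, adjusted p = 0.084). *Gcnt7* and *Nnt* passed in at least 10 of the 12 fits without 1 mouse, *Efna5* in 2, and *Adam23* and *Nr4a1* in 3. For *Rhbdf2* the interaction did not pass (adjusted p = 0.422, log2 fold change -0.79 at 8 weeks).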

How the data were processed

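Bulk RNA of main olfactory epithelium was counted for 3 WT and 3 iRhom2-/- mice of 10 weeks. The values are estimated counts (expected_counts) per gene that the authors deposited as whole numbers without normalization, made with an nf-core pipeline, STAR against GRCm38 and RSEM. The rounding and any filter on genes are not stated. The deposited table has 24 columns of counts. The columns of the mice of 8 weeks served for the interaction with age, and 12 columns, whose names match no single label, are not used here. The table also holds the authors' own comparison of genotypes (log fold change, mean log CPM, likelihood ratio, p and FDR), which is not used here.

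Genes were kept by filterByExpr, scaled by TMM and tested in R 4.3.3 with the quasi-likelihood test of edgeR 4.0.16 (glmQLFit, glmQLFTest). P-values were adjusted for the number of genes tested (Benjamini-Hochberg), and genes under an adjusted p of 0.1 are past the threshold. Standard errors are the log2 fold change divided by the square root of the F statistic. Shares of counts were compared by two-sided exact permutation tests in scipy 1.17.1, and share intervals are Wilson intervals at 95%. Depth was 33812446 to 35736621 counts a mouse, at which 3 counts are 0.0808 to 0.103 CPM. Intervals and floors cover counting error only. The fit was tested on simulated data, of which no outcome is given here. Gene types, positions and transcripts are those of GENCODE for GRCm38, and near-identical copies on the same strand were found with BLAST+ 2.17.0. Alternatives were DESeq2 1.42.0, RLE scaling, library totals without TMM, scaling without the BPI fold and lipocalin genes, the likelihood ratio test, no filter, a minimum of 10 counts, sex as a term, a replicate block, 12 libraries with a shared spread, an adjusted p of 0.05, fits without each mouse and, chosen after the data were seen, counts summed with near-identical copies.

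Named genes are *Rhbdf2*, *Omp*, *Gap43*, *Bpifb9b*, up to 10 higher and 10 lower genes past the threshold in order of p, members of lists past it, the most abundant member and the one with the smallest p of each list, the 3 largest shares of each library, and the first 3 of either sign by interaction p. Others were chosen after their values were seen. The members and the 32 lists were chosen with earlier results of these data known, and the mitochondrial and odorant receptor genes were added to them. Single-cell data, histology and the ages other than 8 and 10 weeks are not analysed here.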

Additional observations from a re-analysis of the deposited data

Results flagged for a closer look

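For 16 genes the difference between genotypes was not the same at 10 and 8 weeks, by the interaction term of edgeR over 12 libraries. The difference at 10 weeks minus that at 8 weeks, on the log2 scale, was 8.02 for *Gm21887*, 4.66 for *Gm12191*, 3.81 for *Zbtb16*, 2.57 for *Pcna-ps2*, 2.17 for *Pcdhgb8*, 1.98 for *Rps13*, 1.18 for *Nnt* and 0.82 for *H1f2*. It was -1.49 for *Nr4a1*, *Tmem254a* and *Tmem254b*, -1.38 for *Gcnt7* and *Nptx2*, -0.9 for *Glb1l2*, -0.87 for *Adam23* and -0.8 for *Efna5*. The pair *Tmem254a* and *Tmem254b* had identical counts and stands for 1 signal. *Gm21887* had 2 counts in the 3 WT mice of 10 weeks together. Its fitted value ran from 7.15 to 10.94 without 1 mouse and does not measure the size of the difference. With 3 mice in each group, no library was tested for lying far from the others of its group. At 8 weeks 1 WT mouse was female and all iRhom2-/- mice were male, and the part of sex was not tested.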

How the results depend on the processing

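The number of genes past the threshold depended on the method. The 16 higher genes were 140 with DESeq2, 88 with the likelihood ratio test, 27 without a filter on low counts, 27 with the replicate number as a block and 10 at an adjusted p under 0.05, and 7 to 43 in fits without 1 mouse. The 21 lower genes were 149 with DESeq2 and 90 with the likelihood ratio test, and 6 to 62 in fits without 1 mouse. The 16 genes with an interaction were 674 with DESeq2, 71 without the filter, 140 with the block and 2 at an adjusted p under 0.05, and 1 to 205 without 1 mouse. Replicate numbers do not pair the mice, so the block has no design behind it. They do carry sex at 10 weeks, when mouse 3 was female in both genotypes. With sex as a term 21 genes were higher and 17 lower.

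Counts summed with near-identical copies, an alternative chosen after seeing the data, turned the log2 fold change of *Hdac1-ps* to -0.24, *Gm10182*, *Gm6594* and *Gm7125* to -0.08, *Gm12191* to -0.13, *Gm9008* to 0.17 and *Gm15459* to 0.06. A gene that holds a small part of such a sum can hardly move it. With the block *Igkc* turned to -0.04 and *Igha* to -0.09. With library totals in place of TMM *Obp2a* turned to -0.07 and *S100a5* to -0.00.

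Leaving out 1 mouse turned the sign of named genes that had not passed the threshold. The log2 fold change then ran from -7.19 to 7.72 for *Xist*, -1 to 4.4 for *Obp2a*, -1.12 to 1.51 for *Hbb-bs*, -0.5 to 2.14 for *Slc4a1*, -1.06 to 1.16 for *Acta1*, -0.17 to 0.63 for *Mylpf* and -1.16 to 0.29 for *Trpc2*. Among immune genes it ran from -0.19 to 1.15 for *Lyz2*, -0.61 to 0.55 for *Igha*, -0.59 to 0.61 for *Igkc*, -0.24 to 0.19 for *Cd4*, -0.22 to 0.17 for *Cd74* and -0.03 to 0.3 for *Ifi27*. Among genes of the epithelium it ran from -0.32 to 0.00 for *Omp*, -0.17 to 0.14 for *S100a5*, -1.37 to 0.24 for *Krt15*, -0.17 to 0.17 for *Bpifb4*, -0.05 to 0.13 for *Tubb3*, -0.15 to 0.04 for *Kit*, -0.32 to 0.02 for *Gpx6*, -0.2 to 0.27 for *Scgb1c1*, -0.13 to 0.04 for *Coch* and -0.08 to 0.09 for *Ccdc40*.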
